A study of Mus musculus with 2 samples.

Results

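The plasminogen activators *Plat* and *Plau*, the receptor *Plaur*, the serpins *Serpine2*, *Serpini1* and *Serpinb5*, and the adhesion molecule *L1cam* were followed across breast tumors growing in the mouse cerebellum. The 7 genes are a list drawn up by name for their known part in metastatic growth along brain vessels. It was chosen with earlier results of these data known. All 7 were among the 19465 genes measured. They were read in 2 cerebellar sections, 1 from each of 2 mice, and both sections carry the genotype HP, with no treatment. HP stands for a mammary tumor with the human HER2 V777L transgene and PIK3CA H1047R, and the sample titles name the organoids HP-F1 +cre for section 1 and HP-B6 +cre for section 2. The transgene is driven by an actin promoter behind a stop cassette that Cre removes. According to the paper, an adenovirus carrying Cre was put into the mammary gland to start the tumors. Organoids were grown from such tumors and injected into the cerebellum of syngeneic B6 mice. Cells placed by a needle do not have to leave a vessel to enter the brain, which limits the model for genes known from that step.

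Plasmin, the protease made from plasminogen by the tissue activator (*Plat*) and the urokinase activator (*Plau*), cuts matrix and cell surface proteins. Several serpins block the activators, among them protease nexin 1 (*Serpine2*) and neuroserpin (*Serpini1*), which neurons secrete. In work on brain metastasis, plasmin is known to release death signals and to cut the L1 adhesion molecule, with which tumor cells spread along vessels. Tumor cells are known there to make serpins that block the plasminogen activators. In the healthy cerebellum, L1cam lies on axons, and neuroserpin is made by neurons.

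Fixed sections 5 µm thick were read with the Visium CytAssist assay, in which pairs of probes bind mouse transcripts in the tissue and pass to barcoded spots of an array, where each captured molecule is 1 UMI. Each spot covers several cells, so that fewer cells of a type and less RNA per cell cannot be told apart. Section 1 held 3406 spots under tissue with 63986887 UMIs and section 2 held 4017 spots with 71878333 UMIs. The array positions make 3096 barcodes common to both sections, and these are not shared cells. Each section was divided into tumor, edge and neural spots by the summed share of 19 measured transcripts of neurons and glia, none of which is 1 of the 7 genes. The edge, where the tumor meets the brain, is the band of spots within 2 array steps of the border on either side. Tumor held 629 and 586 spots in sections 1 and 2, the tumor side of the edge 109 and 240, its neural side 116 and 196, and the neural region 2461 and 2931. Depth differed between regions, with a median of 57068 and 42245 UMIs per spot in the tumor and 7763 and 9883 in the neural region, and levels are therefore given as UMIs per 1000000 UMIs (CPM).

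The tumors of the 2 sections stood apart from each other in their cell markers. A list of 8 epithelial genes summed to 47.7 CPM in the tumor of section 1 and to 11569 CPM in that of section 2. A list of 6 fibroblast genes ran the other way, with 55203 CPM in section 1 and 391 CPM in section 2. No gene of either list was at 0 in a tumor. Proliferation transcripts stood at 473 and 425 CPM for 4 genes. The epithelial sum of section 1 thus lay near that of its neural tissue, 28.0 CPM, so these markers do not show the mammary origin that the label gives. The origin of that tumor was not tested. Because the tumors differ, the 7 genes are set out for each section on its own before the fit over both. Over the 19175 genes tested, the neural regions resembled each other more closely. Their log2 ratio of section 2 to section 1 ran from -0.68 to 0.64 (5th to 95th percentile), against -1.99 to 1.76 in the tumors. The neural transcripts, at 20668 and 17708 CPM there, also drew the regions. Other lists differed in neural tissue, with 28.0 and 383 CPM for the epithelial and 1011 and 153 CPM for the fibroblast genes. The maps of the regions show 1 tumor at the margin of section 1 and 2 tumor patches in section 2.

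**Figure D1:**
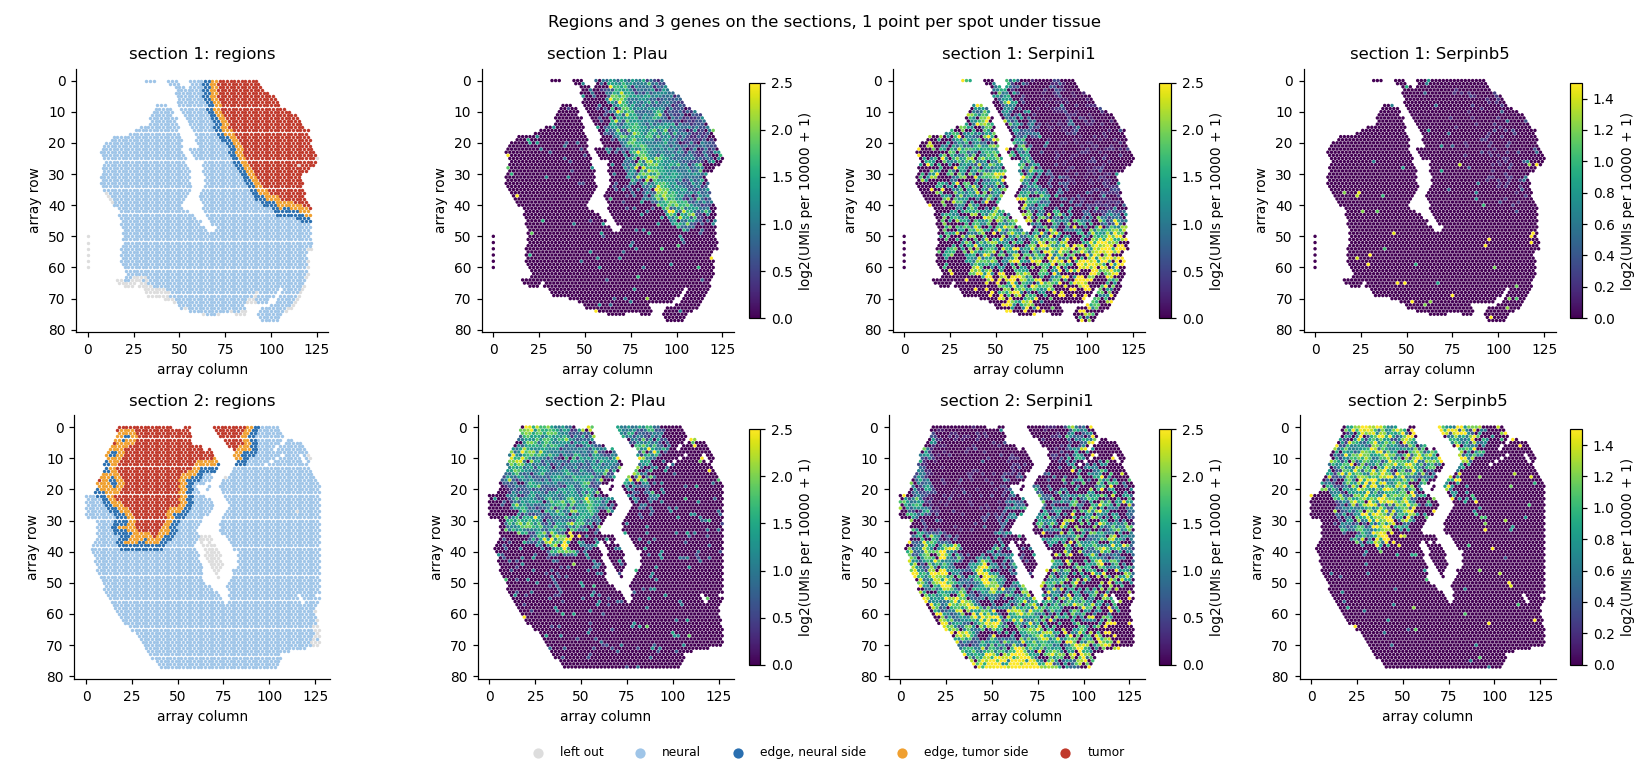
Each point is 1 spot at its array row and column, with section 1 above and section 2 below. The first column shows the regions and the others show Plau, Serpini1 and Serpinb5 as log2 of UMIs per 10000 UMIs plus 1. Plau filled the tumor and its border in both sections, Serpini1 filled the neural tissue, and Serpinb5 filled the tumor of section 2 while it was sparse in section 1.

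Upstream sequence was available for 5 of the 7 genes in the RefSeq table of mouse promoters (build GRCm38.p6), as the 250 bases before the transcript start. The windows of *Plaur*, *Serpini1* and *Serpinb5* are shown because these genes were, in turn, high in tumor and edge, high in neural tissue, and high in 1 tumor of the 2. Capitals mark the AP-1 motif, taken loosely as TGANTCA with any base at N, and the GC box GGGCGG. Both were read on either strand, and GC boxes that overlap run together.
Plaur: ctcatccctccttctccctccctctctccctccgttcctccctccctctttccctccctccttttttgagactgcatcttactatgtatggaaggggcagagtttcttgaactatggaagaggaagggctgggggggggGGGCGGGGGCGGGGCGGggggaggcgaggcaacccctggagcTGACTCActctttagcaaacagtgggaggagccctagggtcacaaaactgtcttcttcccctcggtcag
Serpini1: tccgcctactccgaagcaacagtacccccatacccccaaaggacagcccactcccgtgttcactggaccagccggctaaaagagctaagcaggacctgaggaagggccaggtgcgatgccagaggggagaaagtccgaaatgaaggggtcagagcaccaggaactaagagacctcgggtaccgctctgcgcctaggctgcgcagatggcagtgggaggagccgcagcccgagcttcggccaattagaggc
Serpinb5: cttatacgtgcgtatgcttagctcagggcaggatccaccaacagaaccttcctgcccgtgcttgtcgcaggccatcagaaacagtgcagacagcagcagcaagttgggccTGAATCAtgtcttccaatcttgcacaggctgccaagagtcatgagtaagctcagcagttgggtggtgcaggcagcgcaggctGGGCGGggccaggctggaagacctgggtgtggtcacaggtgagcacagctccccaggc
The *Plaur* window lies on the plus strand at chr7:24462233-24462482, inside the span that RefSeq gives the gene, and holds 1 AP-1 motif and 3 GC boxes. The *Serpinb5* window, chr1:106860925-106861174 on the plus strand, holds 1 match to the loose AP-1 motif, with A at N, and 1 GC box. The *Serpini1* window, chr3:75557243-75557492 on the plus strand, holds neither, which says only that these letters are not in it. Of 32851 mouse windows of this length, 6.75% hold the AP-1 motif and 32.7% the GC box. The window of *Serpine2* holds 6 GC boxes and no AP-1 motif.

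*Plat* encodes the tissue activator of plasminogen, which acts in the bloodstream and is also released by neurons. The gene spans positions 22757722 to 22782848 of chromosome 8. In section 1 its level, scaled by TMM factors (a correction for the make-up of each library), was 28.1 CPM in the neural region, 90.9 CPM on the neural side of the edge, 99.99 CPM on the tumor side and 64.2 CPM in the tumor. In section 2 the levels in the same order were 39.0, 105, 108 and 79.6 CPM. The 2 neural values lay below all tumor and edge values, and the edge was above the tumor in both sections. Which side of the edge was higher depended on the scaling, since in plain CPM the neural side held 102 and 102.3 CPM and the tumor side 91.4 and 100.02 CPM in sections 1 and 2. *Plat* was 2.15-fold higher in tumor than in neural tissue (log2 fold change 1.11, SE 0.16, adjusted p = 0.0053) and 3.04-fold higher at the edge (1.60, SE 0.15, adjusted p = 0.0032), with 2 sections and 8 libraries in edgeR's quasi-likelihood test with Benjamini-Hochberg adjustment over all genes, where an adjusted p below 0.05 is a call. All 7 genes passed the filter on low counts.

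*Plau* encodes urokinase, the activator that works at the cell surface, and spans positions 20836662 to 20843388 of chromosome 14. Its levels from neural tissue through the neural and the tumor side of the edge to the tumor were 16.7, 171, 220 and 109 CPM in section 1. In section 2 they were 16.3, 152, 188 and 145 CPM. Neural tissue of the 2 sections differed by less than 1 CPM in this scaling (20.4 and 17.4 in plain CPM), and no edge or tumor value came near it. *Plau* had the largest fold change of the 7 genes among those higher, 10.97-fold at the edge (log2 3.46, SE 0.22, adjusted p = 0.0027) and 7.69-fold in the tumor (2.94, SE 0.22, adjusted p = 0.0014, edgeR).

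*Plaur*, on chromosome 7 from 24460937 to 24475970, encodes the receptor that holds urokinase on the cell. It stood at 23.7 CPM in neural tissue of section 1, at 131 and 138 CPM on the 2 sides of the edge and at 64.5 CPM in the tumor. Section 2 had 21.5 CPM in neural tissue, 117 and 102 CPM at the edge and 108 CPM in the tumor. The sections were alike in neural tissue and at the neural side of the edge, while in section 1 the tumor was less than the edge and in section 2 it was level with it. The fold change was 5.38 at the edge (log2 2.43, SE 0.30, adjusted p = 0.0048) and 3.82 in the tumor (1.93, SE 0.31, adjusted p = 0.0070, edgeR).

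*Serpine2*, protease nexin 1, is an inhibitor of thrombin and of both activators that glia make, and lies on chromosome 1 from 79794317 to 79858665. Levels in section 1 were 214 CPM in neural tissue, 373 and 378 CPM at the edge and 174 CPM in the tumor. In section 2 they were 242, 357, 441 and 456 CPM in the same order. The tumors thus differed 2.62-fold between sections, on either side of their neural values. Neither comparison passed the test, with a log2 fold change of 0.38 (SE 0.37, adjusted p = 0.44) in tumor and of 0.77 (SE 0.33, adjusted p = 0.14) at the edge (edgeR). A miss of the threshold with 2 sections does not show that the levels were equal.

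*Serpini1*, neuroserpin, inhibits the tissue activator above all, and lies on chromosome 3 from 75557493 to 75642523. It was at 121 CPM in neural tissue of section 1, at 25.9 and 9.89 CPM on the neural and the tumor side of the edge and at 7.94 CPM in the tumor. Section 2 had 134, 45.3, 20.6 and 4.37 CPM. In these values every step from neural tissue to tumor was downward in both sections, and the values of the regions did not overlap. The last step in section 1 was small, and its counting intervals overlapped. In plain CPM the tumor side of the edge held 9.04 CPM there (46 UMIs, 6.62 to 12.1). The tumor of that section held 7.57 CPM (6.67 to 8.55). The log2 fold change was -4.33 in tumor (SE 0.51, adjusted p = 0.0031) and -2.48 at the edge (SE 0.38, adjusted p = 0.0085, edgeR), the largest falls among the 7 genes in these comparisons. The regions were drawn by transcripts of neurons and glia, so a fall of a neuronal gene is partly built into them.

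*Serpinb5*, maspin, is a serpin of epithelial cells that is not known to block proteases, and lies on chromosome 1 from 106861175 to 106883348. In section 1 no region was above 2.55 CPM, which rests on 83 UMIs in the tumor. In section 2 the level was 4.77 CPM in neural tissue, 52.9 and 87.0 CPM at the edge and 122 CPM in the tumor. The tumor of section 2 was 47.8-fold above that of section 1, and 0.673% of the 19175 genes tested were as far apart between the tumors in either direction. With the sections so unlike, the fit over both did not pass in tumor against neural tissue (log2 2.33, SE 1.13, adjusted p = 0.16) or at the edge (1.69, SE 1.10, adjusted p = 0.31, edgeR). DESeq2 called the first of these (2.24, adjusted p = 0.046), and the sections on their own stood at 0.46 and 4.54. With spots thinned to 3000 UMIs, 1.92% of 624 tumor spots in section 1 and 27.1% of 584 in section 2 had a *Serpinb5* UMI (12.6% and 94.4% unthinned), beside 0.642% and 1.08% of neural spots. The epithelial list moved with *Serpinb5* between the tumors, and its part in the difference was not tested.

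*L1cam* encodes the L1 adhesion molecule of axons, and lies on chromosome X from 73853778 to 73880838. Section 1 had 68.0 CPM in neural tissue, 30.2 and 15.1 CPM at the edge and 8.52 CPM in the tumor. Section 2 had 111 CPM in neural tissue, 52.9 and 37.3 CPM at the edge and 43.5 CPM in the tumor. Neural tissue was the highest region in each section, and the tumor of section 2 was 5.11-fold above that of section 1, with 6.97% of genes tested as far apart. *L1cam* fell in the tumor (log2 -2.10, SE 0.44, adjusted p = 0.016) and at the edge (-1.52, SE 0.35, adjusted p = 0.027) in edgeR's test with the section as a block. Without that block neither fall passed (adjusted p = 0.18 and 0.21), and with regions drawn by k-means clustering the edge did not (log2 -0.88, adjusted p = 0.17). The fall is one in share of UMIs. Raw *L1cam* UMIs per spot, which also follow depth, were 0.74 in neural tissue and 0.44 in tumor of section 1. In section 2 they were 1.32 and 1.62. As with *Serpini1*, part of the fall can be built into how the regions were drawn.

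**Figure D2:**
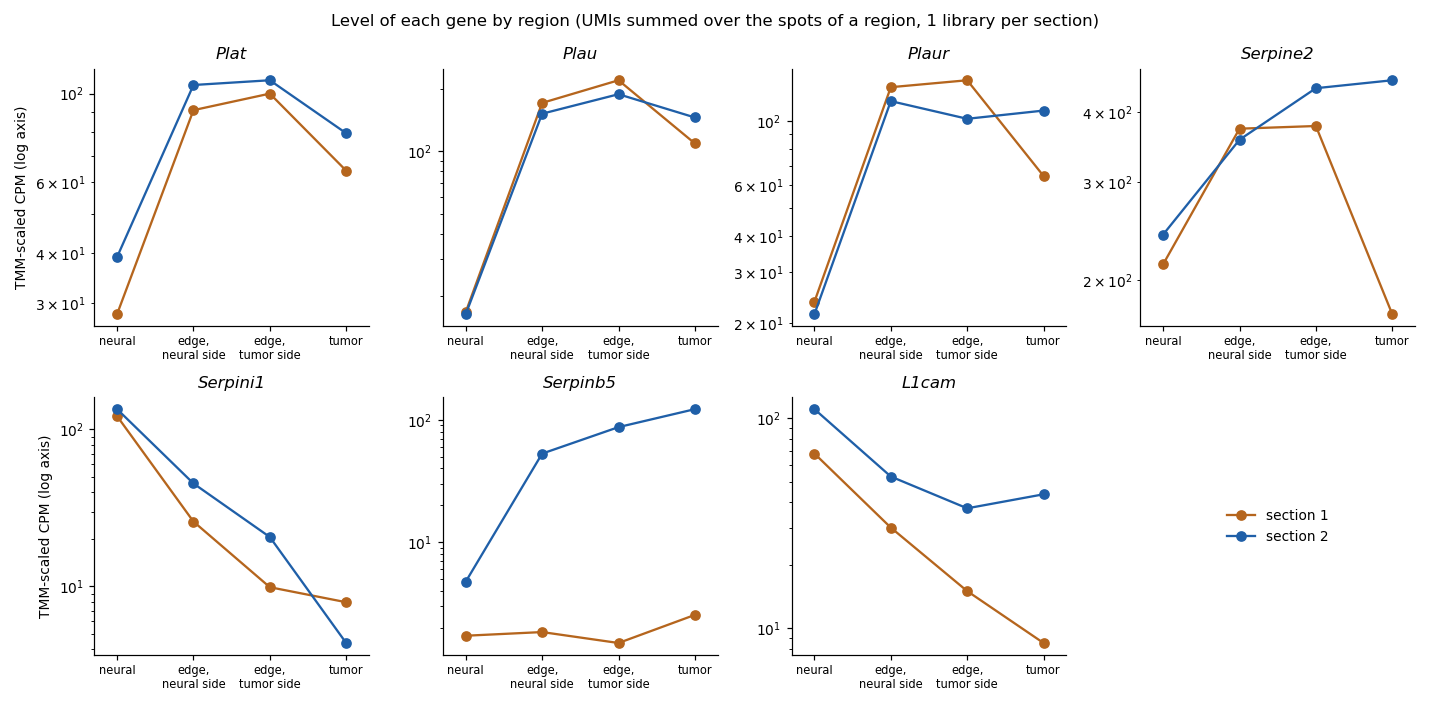
Each panel shows 1 gene, with its TMM-scaled CPM on a log axis in the 4 regions from neural tissue to tumor, 1 point for each section (n = 1 per point, joined by a line for each section). The activators and Plaur were lowest in neural tissue, Serpini1 and L1cam were highest there, and the sections lay farthest apart for Serpinb5 in tumor and edge.

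In all, 3 of the 7 genes (*Plat*, *Plau* and *Plaur*) were higher in tumor than in neural tissue and 2 (*Serpini1* and *L1cam*) were lower. Of all genes tested, 16.9% were called higher and 17.8% lower in that comparison, so that calls in either direction were common. The edge against neural tissue gave the same split, 3 higher and 2 lower, beside 13.7% and 14.4% of all genes. Depending on how libraries were scaled, these shares moved. With library size as the only scaling, 2088 genes were higher and 5161 lower in tumor, in place of 3245 and 3412, and 1898 were higher and 3670 lower at the edge, in place of 2634 and 2768. The 5 genes kept their direction and their call under that scaling, which lowered the median over all genes from -0.15 to -0.46 in tumor and from -0.09 to -0.30 at the edge.

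No gene of the 7 was called between tumor and edge by edgeR, where 0.00522% of all genes were called higher and 0.329% lower. At an unadjusted p under 0.05 in edgeR there were 3, *Plat*, *Plau* and *Serpini1*, beside 2627 of the 19175 genes tested. DESeq2 called 1, *Serpini1*, and also called many more of all genes here than edgeR did. *Plat*, *Plau* and *Plaur* were all less in tumor than at the edge in the fit, by log2 fold changes of -0.50, -0.51 and -0.49 (SE 0.14, 0.18 and 0.27), with adjusted p-values of 0.21, 0.31 and 0.49. The sections differed here, since *Plaur* had -1.05 in section 1 and -0.01 in section 2. *Serpini1* had -1.85 (SE 0.44, adjusted p = 0.15). Where the border was drawn decided the sign of the first 3: with k-means regions, which put the border farther into neural tissue, they stood at 0.14, 1.48 and 0.68, and *Plau* was then called higher in tumor (adjusted p = 0.0075).

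**Figure D3:**
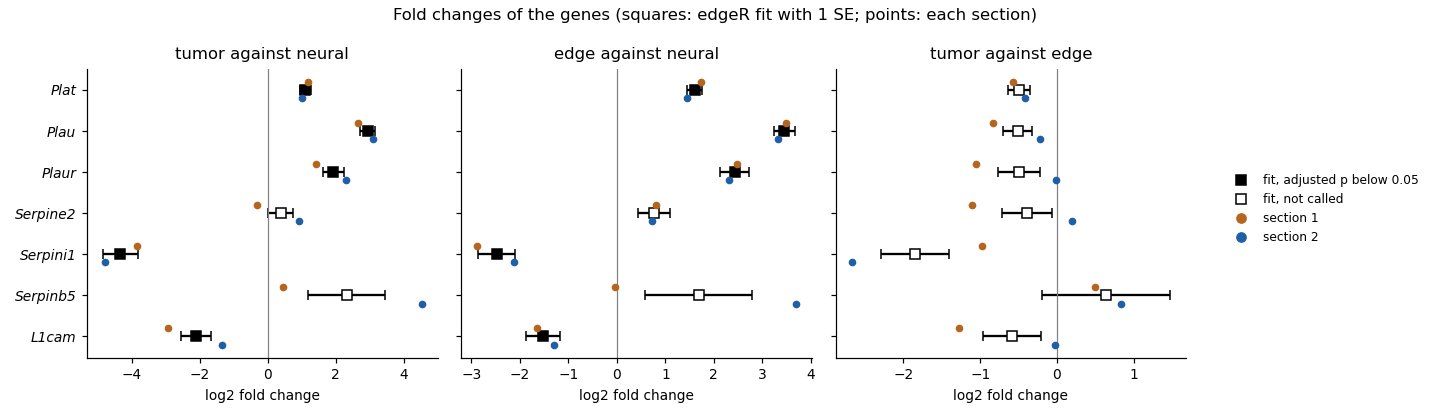
Squares show the log2 fold change of each gene from the fit over both sections with 1 SE, filled where the adjusted p was below 0.05, and points show each section on its own. Plat, Plau and Plaur lie right of 0 and Serpini1 and L1cam left of 0 in both comparisons with neural tissue, no square is filled in tumor against edge, and the points of Serpinb5 lie far apart.

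Levels by distance from the border, in plain CPM without TMM factors, gave a finer picture than the regions. *Plau* was already higher on the neural side of the border, going from 5.05 CPM at 11 or more array steps from the tumor to 81.3 CPM at 4 to 5 steps and 196 CPM at the last neural spots in section 1. In section 2 the same bins held 8.17, 51.2 and 153 CPM. The neural side was mixed near the border: at the last neural spots the neural transcripts were at 14.9% and 19.1% of their level at 11 or more steps, the fibroblast list of section 1 was at 56.1% of its highest bin and the epithelial list of section 2 at 42.8%. The part of tumor cells in these bins was not tested. The highest bin was the first tumor step in section 1 (213 CPM) and the second in section 2 (177 CPM), and the bins deepest in the tumor held 69.0 and 87.2 CPM. In both sections urokinase transcripts were thus densest in a band around the border, with the centre of the tumor at less than the level of the last neural spots.

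*Plaur* had its highest bin on the neural side of the border. In section 1 it was the third neural step, with 158 CPM (exact 95% Poisson interval, counting error only, 134 to 184), against 43.1 CPM in the deepest tumor. The intervals of the first tumor step (129 CPM, 115 to 145) and the second (124 CPM, 111 to 137) overlapped it. In section 2 the highest bin was the second neural step, with 118 CPM (102 to 135), where the epithelial list was at 35.5% of its highest bin. That interval overlapped those of the first tumor step (103 CPM, 93.3 to 113) and of 6 to 10 steps inside the tumor (100.1 CPM, 94.6 to 106), and the deepest tumor bin held 82.5 CPM. The summed list of 6 macrophage genes also had its highest bin on the neural side, at the second neural step in section 1 (2126 CPM) and at the third in section 2 (1491 CPM). Far neural tissue held 129 and 255 CPM of that list. Inside the tumors the profiles parted: in the deepest bin of section 1 *Plaur* was at 27.3% of its highest bin and the macrophage list at 71.2%, and at 6 to 10 steps inside the tumor of section 2 they were at 84.9% and 25.7%. Whether macrophages carried the *Plaur* transcripts was not tested.

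*Plat* was highest at the second neural step of section 1 (108 CPM) and the first tumor step of section 2 (116 CPM), from 22.9 and 34.0 CPM far away. Its deepest tumor bins held 44.1 and 63.7 CPM. Among the 3 genes of activation, *Plat* therefore had the least contrast between far neural tissue and the border in both sections.

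*Serpine2* was nearly flat in neural tissue to the third step, between 247 and 304 CPM in section 1 and between 249 and 282 CPM in section 2. At the border the sections parted. In section 1 it was at 466 CPM at the last neural spots, at 96.1 CPM at 6 to 10 steps inside the tumor and at 240 CPM beyond that. In section 2 it was on a plateau inside the tumor, between 374 and 431 CPM. The high values of section 1 were thus a rim around the tumor and those of section 2 took in its whole area.

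*Serpini1* was lower toward the tumor over a wide zone, as were the neural transcripts. In section 1 it was at 172 CPM at 11 or more steps, 53.0 CPM at 4 to 5 steps and 24.6 CPM at the last neural spots, and in section 2 at 161, 79.8 and 39.6 CPM. *L1cam* was lower over the same zone, going from 93.1 to 28.8 CPM in section 1 and from 127 to 52.7 CPM in section 2. Between the farthest and the last neural spots the neural transcripts went to 14.9% and 19.1% of their far level in sections 1 and 2, *Serpini1* to 14.3% and 24.6%, and *L1cam* to 30.9% and 41.4%. The part of that mixture in both genes was not tested. Inside the tumor *L1cam* stayed between 31.9 and 44.0 CPM in section 2 up to 10 steps from the border and was 18.9 CPM beyond, while in section 1 it went from 16.6 to 5.46 CPM. *Serpinb5* in section 2 went from 2.59 CPM far away to 112 CPM at 6 to 10 steps inside the tumor.

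**Figure D4:**
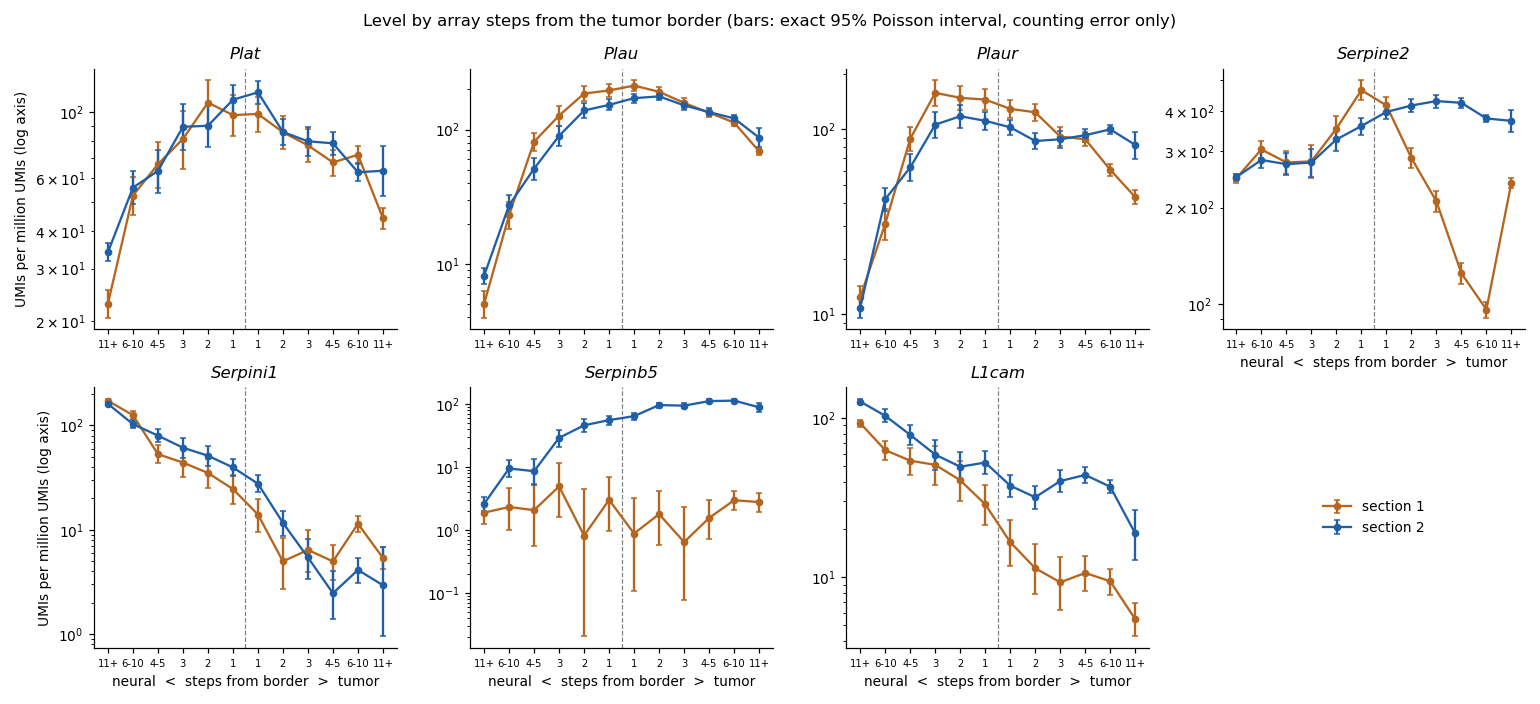
Each panel shows plain CPM of 1 gene on a log axis against array steps from the tumor border (dashed line), neural on the left and tumor on the right, for each section, with exact 95% Poisson intervals for counting error only. Plau, Plaur and Plat peak within 3 steps of the border, Serpini1 and L1cam slope down toward the tumor from 11 or more steps away, and Serpine2 dips inside the tumor of section 1 alone.

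Because these genes are known from growth along vessels, spots were also split by a list of 8 endothelial genes, the 25% with the highest share against the others. In neural tissue these upper spots held 32.5 CPM of *Plau* against 16.9 CPM in section 1 and 34.2 against 13.1 CPM in section 2. *Plaur* held 48.7 against 23.3 CPM and 48.7 against 16.3 CPM, and *Plat* 49.3 against 29.9 CPM and 49.6 against 39.4 CPM. The intervals of the paired values did not overlap, but they cover counting error only and not the spread between spots or mice. *L1cam* ran the other way, with 68.8 against 86.9 CPM and 84.5 against 126 CPM.

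The endothelial list itself was higher near the tumor, at 515 CPM 4 to 5 neural steps away in section 1 and 636 CPM at the first tumor step in section 2, against 278 and 275 CPM at 11 or more steps. Among neural spots at 11 or more steps, the upper spots held 5.00 CPM of *Plau* against 5.06 CPM in section 1 and 10.2 against 7.71 CPM in section 2, with overlapping intervals. *Plat* held 27.1 against 22.0 CPM and 32.4 against 34.4 CPM, again overlapping. *Plaur* was again higher in the upper spots of section 2 (16.9 against 9.51 CPM), and its intervals overlapped in section 1 (16.8 against 11.5 CPM). The contrast of *Plau* by vessel markers was thus much smaller in tissue away from the border. With a median of 7763 and 9883 UMIs per neural spot, few endothelial UMIs fell on each spot, so counting error also enters this split. *Plau* rested there on 78 and 202 UMIs in sections 1 and 2.

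*L1cam* at 11 or more steps was still less in the spots with more endothelial transcripts, 100.1 against 133 CPM in section 2, while the intervals met in section 1 (79.9 against 96.0 CPM). Inside the tumor *Plat* was slightly higher in the upper spots of both sections, 71.3 against 57.6 CPM and 80.5 against 66.6 CPM. *Plau* was higher there in section 1 only, 125 against 96.3 CPM, and 125 against 128 CPM in section 2. Depth inside the tumor was not held fixed in this split. From 3 to 11 or more steps inside the tumor of section 1, the endothelial list went from 468 to 198 CPM. *Plat* went from 77.4 to 44.1 CPM and *Plau* from 158 to 69.0 CPM. In section 2 the list was at 429 and 439 CPM at these depths, *Plat* at 79.8 and 63.7 CPM, and *Plau* at 152 and 87.2 CPM. Between them, at 6 to 10 steps, the list was lower, at 325 CPM over 286 spots, with *Plat* at 62.9 CPM and *Plau* at 121 CPM. The deepest bin of section 2 held only 52 spots.

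Genes whose pattern across spots was most like each member were ranked among 11970 genes by the lower of the Pearson r in the 2 sections, over 3315 and 3953 spots that share a library, depth and position. These spots cover the tumor, the edge and the neural region, so a likeness can partly follow the split between regions. The ranking was not run within a region. *Plau* was most like *Tnc*, tenascin C of the matrix (0.74 and 0.73), then *Sdc1*, a heparan sulfate carrier (0.72 and 0.71), and *Ecm1* (0.72 and 0.70). *Plaur* was most like *Lgals3*, galectin 3 (0.61 and 0.63), followed by *Thbs1* (0.57 and 0.58) and *Tnc* (0.57 and 0.60). *Plat* had weaker likeness, to *Cd44* (0.40 and 0.36), *Lgals3* (0.40 and 0.36) and *S100a6* (0.37 and 0.36).

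*Serpini1* was most like *Pvalb*, parvalbumin of Purkinje cells and interneurons (0.49 and 0.57), then *Spock2* and *Nsg1*. *L1cam* was most like the synaptic gene *Snap25* (0.33 in each section), then *Snhg11*. Since tumor and neural spots both entered the ranking, the likeness of *Serpini1* and *L1cam* to neuronal genes can partly restate their fall between these regions. *Serpine2* reached 0.26 and 0.36 with *Basp1*, followed by *Gja1* (0.24 and 0.37) and *Capns1* (0.22 and 0.28). *Serpinb5* was left out, because it had a UMI in 4.16% of spots in section 1.

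Within the edge, *Plau* and *Plaur* had an r of 0.33 in section 1 and 0.21 in section 2, and *Serpini1* had an r of 0.52 and 0.66 with the list of Purkinje cell and interneuron genes. *Plau* and *Serpini1* had an r of -0.29 and -0.39, *Serpine2* and *Serpini1* one of -0.19 and -0.29, and *Serpini1* and *L1cam* one of 0.25 and 0.18. Some relations had opposite signs in the sections. *Plau* had an r of 0.39 with the macrophage list in section 1 and of -0.23 in section 2, and *Serpine2* one of 0.55 with the neutrophil list in section 1 and of -0.12 in section 2. *Plau* in section 2 went with the epithelial list (0.47), as did *Serpinb5* (0.52). The edge takes in both sides of the border, so each r can partly follow the mixture of tumor and neural tissue. The neural transcripts were at 4546 and 4380 CPM on its neural side in sections 1 and 2, and at 1395 and 1416 CPM on its tumor side. Some genes of the Purkinje cell and interneuron list also drew the regions.

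The rest of the plasminogen system was read from a list of 19 genes, 18 of which were tested. In tumor against neural tissue 3 were higher and 2 lower, beside 16.9% and 17.8% of all genes, a share near or under that background, and the median log2 fold change was -0.34 beside -0.15 for all genes. *Anxa2* (log2 3.79, SE 0.23, adjusted p = 0.0013) and its partner *S100a10* (2.59, SE 0.28, adjusted p = 0.0024), which together hold plasminogen and *Plat* at the cell surface, were among the higher, as was the plasminogen receptor *Plgrkt* (1.17, SE 0.25, adjusted p = 0.018). Tissue factor, *F3*, was lower (-2.13, SE 0.28, adjusted p = 0.0038), as was the plasmin inhibitor *Serpinf2* (-1.61, SE 0.30, adjusted p = 0.011, edgeR). Part of these falls, too, can be built into regions drawn by transcripts of neurons and glia. At the edge 4 were higher and 1 lower, beside 13.7% and 14.4% of all genes, with *Anxa2* and *S100a10* again among the higher and *Serpinf2* the lower. *Plg*, plasminogen itself, was not called. Its levels were low, at 3.11 and 1.94 CPM in neural tissue of sections 1 and 2 and 1.45 and 1.24 CPM in tumor. Missing the threshold there does not show equal levels. *Serpinf2* was low too, at 3.75 and 8.86 CPM in neural tissue and 1.54 and 2.30 CPM in tumor.

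Of 18 other serpins tested, 4 were higher and 2 lower in tumor (16.9% and 17.8% of all genes), with a median of -0.06, and 4 were higher and 1 lower at the edge (13.7% and 14.4% of all genes), with a median of 0.18. These counts were near the background. *Serpinh1*, the collagen chaperone, led both comparisons (3.50 in tumor and 3.28 at the edge), followed by the intracellular serpins *Serpinb8* (2.46 and 1.76) and *Serpinb6a* (1.79 and 1.75). *Serpind1*, heparin cofactor II, was lower in both (-2.36 and -1.60), and *Serpina3n* was lower in tumor (-2.52). Levels of *Serpind1* were low, at 9.94 and 9.72 CPM in neural tissue of sections 1 and 2 and 2.18 and 1.65 CPM in tumor. As with *Serpini1*, part of the falls of *Serpind1* and *Serpina3n* can be built into how the regions were drawn. Sections differed in tumor for *Serpinh1*, with 4.67 in section 1 and 2.61 in section 2, and for *Serpinb8*, with 3.04 and 1.49, and the fibroblast list was high in the tumor of section 1.

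Among 17 relatives and partners of L1, 7 were higher and 8 lower in tumor (16.9% and 17.8% of all genes), and 7 were higher and 6 lower at the edge (13.7% and 14.4% of all genes). The higher ones were led by the integrins that bind L1 or its partners, *Itgb1* (2.80 in tumor and 2.41 at the edge) and *Itga5* (2.41 and 2.78), with *Nrp1* in tumor (1.82) and *Itgb3* at the edge (2.43). The lower ones were led by the ankyrin *Ank2* (-3.98 and -2.25), with *Cntn2* (-3.89) and *Nfasc* (-3.85) in tumor and *Cntn1* (-2.10) and *Ank3* (-2.10) at the edge, all genes of axons. Their direction, too, is partly built into regions drawn by transcripts of neurons and glia. *Ank2* in tumor was at -3.22 in section 1 and -4.94 in section 2. Between tumor and edge 1 gene of the 3 lists was called, *Nrcam*, lower in tumor (-2.59, SE 0.30, adjusted p = 0.049, edgeR). Of all genes, 0.00522% were called higher and 0.329% lower in that comparison. The call lay close to the threshold, and without the replicate block or without smoothing no gene at all was called there.

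**Figure D5:**
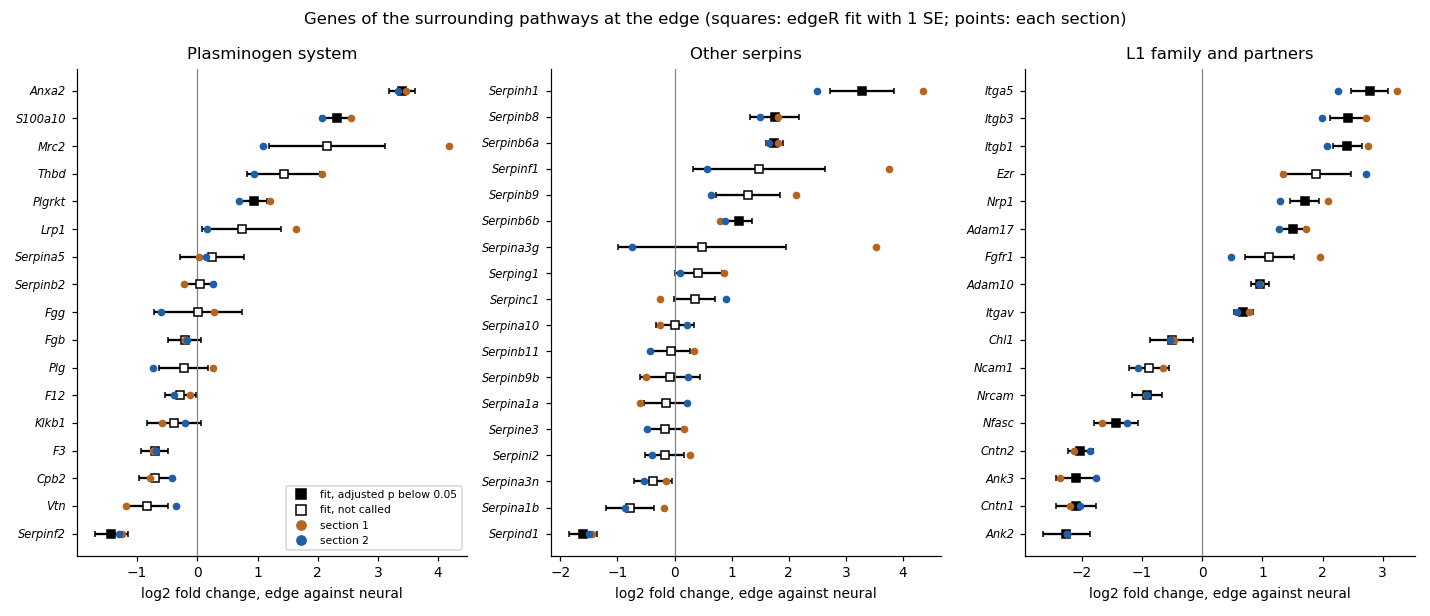
Log2 fold changes at the edge against neural tissue for genes of the plasminogen system, other serpins and the L1 family with its partners. Squares are the edgeR fit with 1 SE, filled where the adjusted p was below 0.05, and points are the sections. Anxa2, Serpinh1 and Itga5 lead their lists, and Serpinf2, Serpind1 and Ank2 close them.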

How the data were processed

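The authors aligned and counted with Space Ranger 2.1.1, and the submitters' processing notes give the build as mm10. What they deposited is a matrix for each section of whole-number UMI counts, not normalized. Counting error is small for genes with many UMIs in a region. It is larger for genes with few, such as *Serpinb5* in section 1, with 7 UMIs on the tumor side of the edge and 6 on its neural side. The number of sections, 2, limits precision for all. Counting intervals are at the 95% level.

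Spots with at least 500 UMIs and 10 genes were kept. The log2 share of the neural panel was averaged over array neighbours and split by Otsu's threshold in each section. Low-neural patches of at least 50 spots were called tumor unless choroid plexus transcripts exceeded proliferation transcripts. Summing UMIs over the spots of each region and section gave 8 libraries, which were fitted with edgeR 4.0.16 (R 4.3.3) by filterByExpr, TMM, robust glmQLFit and glmQLFTest, with Benjamini-Hochberg adjustment over 19175 genes and a call at 0.05. The section was a block, since its regions share 1 mouse (common dispersion 0.0873 with it and 0.188 without). With 3 residual degrees of freedom, p-values rest on 2 mice. Section fold changes add 0.5 CPM. The test was run on simulated counts of smaller spread than these data, as a check of the code only.

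Alternatives were DESeq2 1.42.0, RLE factors, library size, no low-count filter, no block, an edge of 1 or 3 steps, k-means regions, 1000 UMIs per spot, no smoothing, each section alone and raw UMIs per spot. The members and lists were chosen with earlier results of these data known. All 7 members are named, and from each pathway list the 3 largest called changes per direction that agree in both sections. *Serpinb1a* and *Ccnb1* were not analysed here. A few genes that these rules select are not reported here, though the counts and fits include them. Sequences are from RefSeq, through gene symbols.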

Additional observations from a re-analysis of the deposited data

Results flagged for a closer look

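A patch of 45 spots in section 2 with little neural signal and 1 further such spot were left out of all regions, because only patches of at least 50 spots were called tumor. Choroid plexus transcripts were at 218808 CPM for the 5-gene list in these spots. The 46 spots held 546192 UMIs. *Serpine2* was measured there at 45.77 CPM (25 UMIs), *Plau* at 23.8 CPM (13 UMIs), *Serpini1* at 14.65 CPM (8 UMIs), and *Plat* and *Plaur* at 10.99 CPM each (6 UMIs). All 5 lie above the limit of 5.49 CPM that a count of 0 allows, and they came up because these spots entered no comparison. *Serpinb5* and *L1cam* had 3 UMIs each, which is at that limit.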

How the results depend on the processing

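Over 10 other settings with a test, 68 of 70 values in edge against neural tissue and 68 of 70 in tumor against neural tissue kept their direction and their side of the threshold, as did 64 of 70 in tumor against edge. The exceptions were *L1cam* without the replicate block (log2 -1.78 in tumor and -1.43 at the edge) and with k-means regions at the edge (-0.88), *Serpinb5* in tumor with DESeq2 (2.24), and, in tumor against edge, *Serpini1* with DESeq2 (-1.78) and k-means regions (-2.81), and *Plat* (0.14), *Plau* (1.48), *Plaur* (0.68) and *Serpine2* (0.29), which turned positive with k-means regions. That setting puts more spots in the tumor, so that the edge lies in what is neural tissue here. Each section alone turned *Serpine2* in tumor against neural tissue (-0.30 to 0.91) and in tumor against edge (-1.11 to 0.20), and *Serpinb5* at the edge (-0.036 to 3.70). Raw UMIs per spot turned *Serpine2* in tumor against edge (0.037). In section 2 alone they also put *L1cam* higher in tumor than in neural tissue (1.62 against 1.32 per spot).

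Counts of genes called were 3815 in tumor and 3085 at the edge without the replicate block, and 2333 at the edge with k-means regions. In tumor against edge they were 1344 with DESeq2, 162 with RLE factors, 424 with an edge of 1 step, 10 with an edge of 3 steps, 2922 with k-means regions, and 0 without the block and without smoothing, in place of 64. Of the 7 genes, 1 was called there with DESeq2 and 2 with k-means regions. The cause was not tested. The 2 sections, 1 library for each region, limit every statement, and the 2 tumors differ in epithelial and fibroblast transcripts. *Serpinb5* in section 1 rests on few UMIs.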
